A study of Mus musculus with 12 samples.

Results

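The response of the mouse heart to myocardial infarction (MI, death of heart muscle after its blood supply is cut off) was described here for surgery in the daily sleep period. Mice are active at night, so the sleep period is the light phase. The comparison took in 6 of the series' 12 arrays, 3 of sleep-period MI hearts and 3 of sleep-period sham hearts, chosen by the group named in each sample's title. The MI mice had infarction surgery and the sham mice (SH) had a sham operation, both at ZT 1 to 3, where ZT is zeitgeber time, the hours after lights on. Hearts were collected 8 hours later, at ZT 11, and each array measured total RNA of 1 heart of a C57Bl/6 mouse, labelled a biological replicate. The other 6 arrays were the wake-period counterpart, with surgery at ZT 13 to 15 and collection at ZT 23. The labels describe the MI samples as infarcted myocardium and the sham samples by the operation alone. They give no age, sex, infarct size or dissection, so it is not known whether the same portion of the heart was taken in both groups, and they do not say what the sham operation included.

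In the first hours after an infarct, cardiac cells lose oxygen and substrate, heat shock proteins are made to hold damaged proteins in solution, and immediate early genes, which need no new protein synthesis to be transcribed, respond to stretch, growth factors and injury signals. Surviving muscle around the infarct is stretched and makes natriuretic peptides, hormones that lower blood volume and pressure. Injured tissue also releases cytokines and chemokines that draw neutrophils first and monocytes afterwards. Surgery is itself an injury, and a sham group is meant to carry that part of the response.

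The genes tested numbered 8109, each represented by its brightest single-gene probe set. Values are MAS5 signals, a linear brightness per probe set, and differences are on the log2(signal + 16) scale, so folds of dim genes are understated. Genes were tested with limma, and a gene was called at a Benjamini-Hochberg adjusted p below 0.05. The correlation of 2 arrays across genes was 0.985 to 0.988 for the 3 pairs within sleep MI, 0.978 to 0.987 for the 3 pairs within sleep sham and 0.962 to 0.980 for the 9 pairs between the groups. The lowest pair within sham joined replicates 2 and 3. The heart label fitted its cardiomyocyte markers. The cardiomyocyte genes Myh6, Actc1, Tnnt2, Tnni3 and Myl2 had signals of 6029 to 12740 on all 6 arrays, while the T cell marker Cd3e, the B cell marker Cd79a, the brown fat marker Ucp1, the skeletal muscle markers Myh4 and Tnnt3 and the thymus marker Rag1 lay below the level filter. Other genes listed for these tissues passed it. They were 4 of 13 skeletal muscle genes, among them Acta1 (639 to 3778), and 2 of 17 lymphocyte genes. Of 11 thymus and brown fat genes, 2 passed, Cidea (283 to 358) and Cox8b (7408 to 9813). The ratio of the 3-prime to the 5-prime beta-actin probe set, which rises as RNA degrades, was 2.40 ± 0.454 (SD, n = 3) in MI and 2.18 ± 0.282 in sham.

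Sleep sham replicate 3 stood apart from sleep sham replicates 1 and 2. It differed from their mean by more than 1 on the log2 scale for 1.05% of genes, against 0.321% for sham 1 and 0.592% for sham 2, each set against the other sham arrays, and 0.197% to 0.284% for the MI arrays measured likewise. The direction was uneven, with 70 genes below and 15 above. Sham 2 was uneven the other way, with 8 below and 40 above. The beta-actin ratio of sham 3, 1.94, was the lowest of the 6 sleep arrays. Of the 6 wake arrays measured likewise, 1 was higher, wake MI 3 at 1.12%, and the others lay between 0.222% and 0.617%. Counts and values without sham 3 are given beside the results, with the genes whose call ended without it, and its genes are described after the MI effect.

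MI in the sleep period changed 217 of the 8109 genes (2.68%). Of these, 137 rose (1.69%) and 80 fell (0.987%), and the rises were the larger changes. At 2-fold or more there were 79 rises and 5 falls. The signals of MI and sham did not overlap for any of the 217, but that also held for 1904 of all genes tested (23.5%). Over all genes the median difference was -0.05 and the median size of a difference was 0.15, close to the median standard error (SE) of 0.14. Without sham 3, 83 genes were called, 72 higher and 11 lower, of which 78 were among the 217. The count was 57 without MI 1, 124 without MI 2, 109 without MI 3, 94 without sham 1 and 230 without sham 2. A set of 50 genes, 48 higher and 2 lower, was called whichever 1 of the 6 sleep arrays was left out. Genes of this set are said to hold without any 1 sleep array. A call said to end without sham 3 could also end without other sleep arrays, which is given for some genes only.

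The largest rise was that of the inducible heat shock protein 70 genes, Hspa1b and Hspa1a, which encode a chaperone that refolds damaged proteins. They are neighbours on chromosome 17 and the start of each gene is preceded by nearly the same sequence, so their promoters are shown here together with that of Hspb1, the small heat shock protein 27, which was also called. The sequences are the 250 bases before the annotated start in RefSeq (build GRCm38.p6), 5′ to 3′ on the gene's strand. Capitals mark each match to GAANNTTC, an inverted pair of the GAA units that heat shock factor is known to bind, a motif that reads the same on both strands.
Hspa1b, chr17:34959239-34959488, minus strand: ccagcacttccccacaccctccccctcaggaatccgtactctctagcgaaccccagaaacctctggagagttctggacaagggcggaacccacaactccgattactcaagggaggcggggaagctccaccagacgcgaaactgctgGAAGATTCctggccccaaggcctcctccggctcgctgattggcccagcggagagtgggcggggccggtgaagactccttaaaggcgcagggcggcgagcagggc
Hspa1a, chr17:34972157-34972406, minus strand: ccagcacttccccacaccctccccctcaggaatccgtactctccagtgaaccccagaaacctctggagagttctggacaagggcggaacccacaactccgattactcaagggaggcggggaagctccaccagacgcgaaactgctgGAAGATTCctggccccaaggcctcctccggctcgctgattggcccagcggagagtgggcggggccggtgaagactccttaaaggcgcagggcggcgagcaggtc
Hspb1, chr5:135887669-135887918, plus strand: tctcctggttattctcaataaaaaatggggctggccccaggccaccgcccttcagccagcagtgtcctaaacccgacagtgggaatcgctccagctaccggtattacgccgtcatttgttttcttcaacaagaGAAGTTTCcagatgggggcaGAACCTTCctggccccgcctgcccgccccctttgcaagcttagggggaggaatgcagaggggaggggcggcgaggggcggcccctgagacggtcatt
The Hspa1b and Hspa1a sequences were identical at 247 of 250 bases, and the match in each began 104 bases before the start. Hspb1 held 2 matches, which began 117 and 97 bases before the start. The same 250 bases were searched before every annotated start, and 6.69% of 32851 windows held the motif. It was found in 8 of the 115 rising genes that had a window (6.96%) and in 5 of the 62 falling genes (8.06%), shares close to that of all windows and to the 6.31% of the genes tested. TGANTCA, the motif of the AP-1 factors to which Fos and Jun belong, was found on either strand in 10 of the 115 (8.70%) and 4 of the 62 (6.45%), against 5.68% of the genes tested. A match to one cannot overlap a match to the other. A match is a string of letters and not a measured binding site.

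Hspa1b gave signals of 3595, 2263 and 2938 in the MI hearts and 56.1, 31.9 and 43.3 in the shams. Every MI heart was far above every sham, and sham 3 lay between the other shams. The rise was 5.62 on the log2 scale, or 49.1-fold (SE 0.51, limma adjusted p = 4.31e-05). Hspa1a rose from signals of 36.6, 29.6 and 17.1 to 967, 566 and 930, by 4.24 (SE 0.33, limma adjusted p = 1.23e-05). Both genes held their calls without any 1 sleep array. Since the genes are near-identical copies, their probe sets may read each other's RNA, and this was not tested.

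Only part of the chaperone family moved. Counts in this and the following lists are read beside the 1.69% of all genes that rose and the 0.987% that fell. The lists were chosen with earlier results of these data known. Of 27 heat shock and co-chaperone genes tested, 5 rose and 0 fell, and the list's median was 0.13, against -0.05 over all genes. Besides the heat shock protein 70 pair these were Hspb1, Dnajb1 and Dnajb4, the last of them co-chaperones of the HSP40 family. Hspb1 stood at 5991, 5443 and 6537 in MI and 3353, 2939 and 3501 in sham, with narrow groups well apart, a rise of 0.87 (SE 0.10, limma adjusted p = 0.000382). Dnajb1 rose by 1.47 and Dnajb4 by 0.80, and neither had GAANNTTC in any of its windows. All 5 calls held without any 1 sleep array. The abundant small heat shock proteins of heart muscle, Cryab (0.13, limma adjusted p = 0.564) and Hspb7 (0.20, 0.324), did not pass, and each had overlapping groups. Among 25 genes of the endoplasmic reticulum and integrated stress responses, 3 rose, with a list median of -0.12. They were Ppp1r15a, a phosphatase subunit that restores translation (1.06, limma adjusted p = 0.00572), the transcription factor Atf4 (0.71, 0.028) and the asparagine synthetase gene Asns (0.67, 0.0465). Without sham 3 only Ppp1r15a of these remained called. The endoplasmic reticulum chaperone Hspa5 differed by 0.07 and did not pass.

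**Figure D1:**
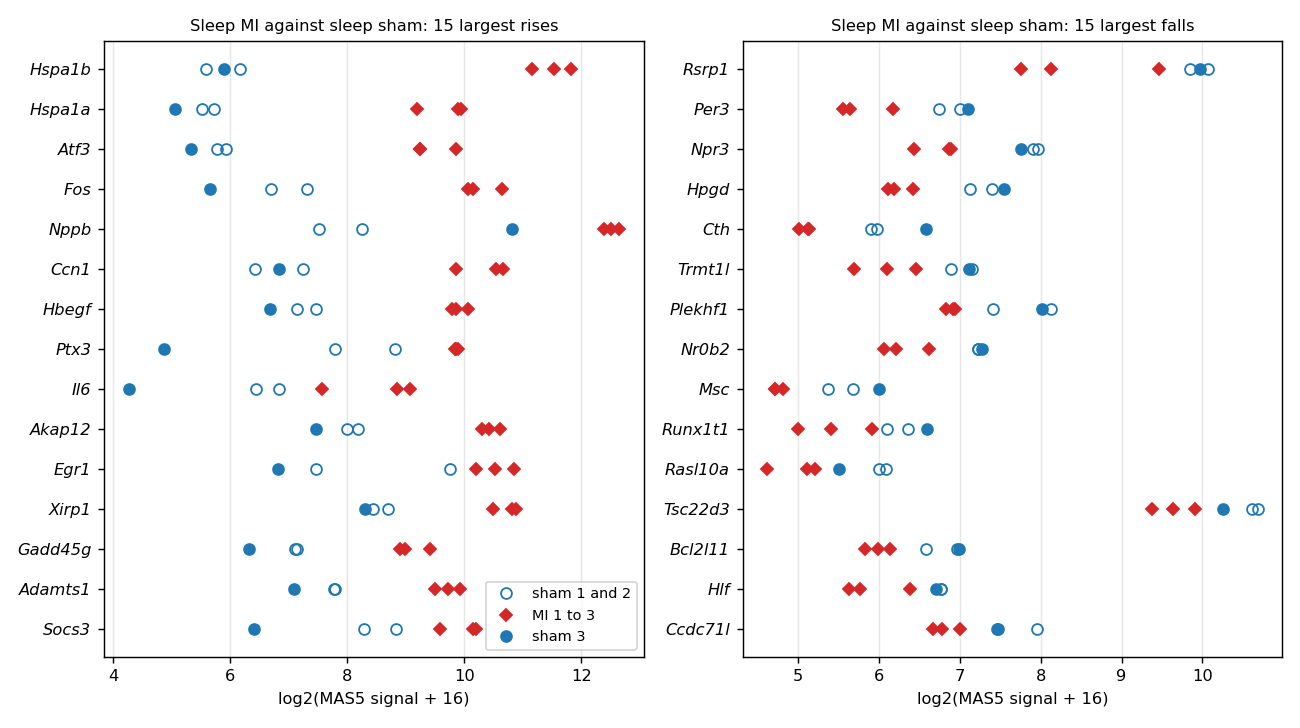
Level on the log2(MAS5 signal + 16) scale of the 15 called genes with the largest rises (left) and the 15 with the largest falls (right) in sleep MI against sleep sham, 1 point an array: red diamonds are the 3 MI hearts, open circles sham 1 and 2, filled circles sham 3. No pair of groups overlaps, Nppb is higher in sham 3 than in the other shams, and Ptx3, Il6 and Socs3 are lower in it.

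Immediate early transcription factors, which switch on within minutes of a stimulus, formed the group with the most rises. Of 28 tested, 13 rose, beside 1.69% of all genes, and 0 fell, with a median of 0.82. Without sham 3 the count was 9 and the median 0.61. Atf3, a stress-induced factor of the ATF family, gave 909, 590 and 588 in MI and 38.7, 44.9 and 24.4 in sham. The groups were wide apart, and sham 3 was the lowest sham. Atf3 rose by 3.77 (SE 0.28, limma adjusted p = 1.23e-05). Fos, which pairs with Jun proteins to form AP-1, gave 1578, 1114 and 1054 against 87.3, 143 and 34.3, a rise of 3.73 (SE 0.40, limma adjusted p = 0.000155). Its partner Jun rose by 1.42 and the growth-restraining gene Btg2 by 1.74, and all 4 held without any 1 sleep array.

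Egr1, a zinc finger factor induced by growth and stretch signals, showed how far the shams varied. Its signals were 1838, 1458 and 1155 in MI and 160, 846 and 96.6 in sham, so that sham 2 was close to the lowest MI heart while the other shams were far lower. The rise was 2.52 (SE 0.61, limma adjusted p = 0.0428), and the call ended without any 1 MI array, without sham 1 or without sham 3 (1.92, limma adjusted p = 0.16). The other members that rose were Fosb, Junb, Nr4a1, Ier3, Ier5, Maff, Mafk and Myc, by 0.63 (Mafk) to 1.82 (Nr4a1). Without sham 3, Junb, Nr4a1 and Mafk were no longer called (limma adjusted p = 0.059, 0.0979 and 0.0674). Members with high signals that did not pass were Klf9 (-0.09) and Cebpb (0.11).

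Genes that dampen signalling moved with them: 5 of 21 rose and 0 fell (median 0.62, and 3 without sham 3). Gadd45g, a growth arrest and stress sensor, gave 666, 460 and 490 in MI and 122, 126 and 63.4 in sham, a rise of 2.24 (SE 0.24, limma adjusted p = 0.000189). Zfp36, which marks cytokine mRNAs for decay, rose by 1.37 and Cish, a brake on cytokine receptors, by 1.13. Socs3, the main brake on interleukin-6 signalling, gave 1162, 1122 and 748 against 296, 440 and 68.8. Its groups did not overlap, but sham 3 was far below the other shams, and the rise of 2.14 (limma adjusted p = 0.0465) was no longer called without it (1.42, limma adjusted p = 0.14), nor without sham 1 or any 1 MI array. Socs2 (0.77) lost its call in the same cases. Dusp1, a phosphatase that switches off stress kinases, differed by 0.71 (limma adjusted p = 0.117) and Nfkbia, the inhibitor of NF-kappaB, by 0.45 (0.41), and both did not pass.

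Genes that heart muscle makes under strain formed the next group, with 9 of 21 rising and 0 falling, a median of 0.69, and 8 rising without sham 3 (median 0.67). Nppb encodes B-type natriuretic peptide, the hormone used in the clinic as a measure of heart failure. It gave 5819, 5331 and 6426 in the MI hearts and 288, 167 and 1778 in the shams. The MI hearts were alike and all above the shams, and sham 3 was several times the other shams. The rise was 3.66 (SE 0.65, limma adjusted p = 0.00983), and without sham 3 it was 4.64 (0.00011).

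Ccn1, a secreted matricellular protein induced by stretch, gave 1598, 1469 and 911 in MI and 70.2, 135 and 97.4 in sham, a rise of 3.52 (SE 0.36, limma adjusted p = 0.000109). Hbegf, a membrane-bound growth factor of the EGF family, rose by 2.81 from 125, 161 and 86.1 to 1049, 873 and 907. Xirp1, an actin-binding protein of the intercalated disc, gave 1785, 1419 and 1869 against 399, 332 and 301 and rose by 2.24 (SE 0.17, limma adjusted p = 1.23e-05). In each of these genes the groups lay far apart and the call held without any 1 sleep array. The calcineurin inhibitor Rcan1 rose by 1.34. The remaining called members were Ankrd2, Ccn2, Enah and Tpm4, by 0.69 (Tpm4) to 1.76 (Ccn2). Without sham 3, Ankrd2 and Tpm4 were no longer called (limma adjusted p = 0.126 and 0.0774). From the contractile list only Flnc, which crosslinks actin at the Z-disc, was called, 1 of 24, and it rose by 1.65 (SE 0.27, limma adjusted p = 0.00546) from 195, 178 and 231 to 726, 488 and 822. Akap12, a scaffold for protein kinases that is in none of these lists, rose by 2.56.

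Several classical fetal and strain genes did not pass, and in each sham 3 was far from the other shams. Ankrd1, a stretch-responsive protein of the sarcomere, gave 4920, 4611 and 5499 in MI and 1664, 2245 and 4706 in sham. Its difference was 0.94 (limma adjusted p = 0.0977), and without sham 3 it was 1.36 (0.0029). Acta1, skeletal actin, gave 1750, 1719 and 1865 against 639, 806 and 3778, so that sham 3 was above every MI heart and the other shams below. Myh7, the slow myosin heavy chain, gave 270, 442 and 313 against 377, 542 and 2675, a difference of -1.26 (limma adjusted p = 0.227) that was -0.42 without sham 3. Nppa, the atrial natriuretic peptide, gave 1703, 1485 and 1409 against 1772, 1599 and 4111.

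**Figure D2:**
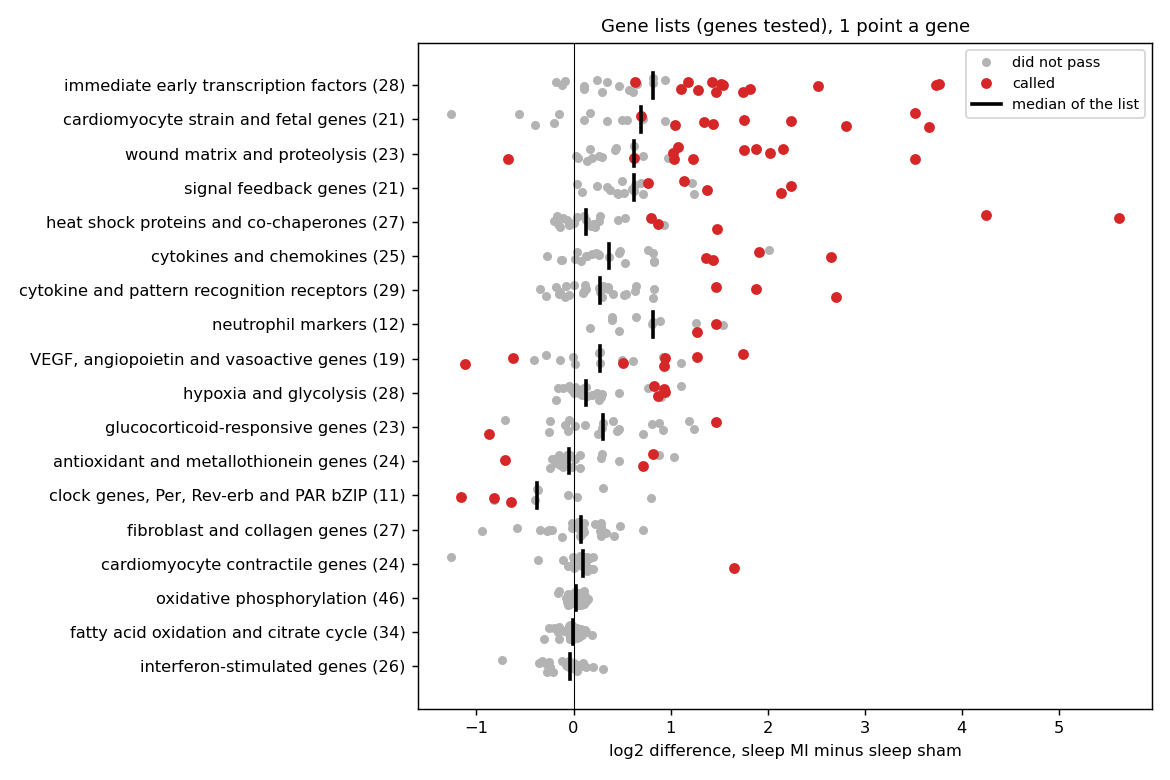
Difference of sleep MI and sleep sham on the log2 scale (horizontal axis) for the genes of the lists named, 1 point a gene, with the number tested in brackets; red points were called, grey ones did not pass, and the black bar is the list's median. Immediate early, strain, wound and signal feedback lists have medians of 0.62 to 0.82, and the mitochondrial lists lie near 0.

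Inflammatory mediators rose in part. Of 25 cytokine and chemokine genes, 4 rose and 0 fell (median 0.36), and without sham 3 there were 3 (median 0.13). Il6, a cytokine of the acute phase response, gave 446, 522 and 174 in MI and 71.0, 97.8 and 3.19 in sham. Sham 3 was the lowest array, and MI 3 was the lowest MI heart. The rise was 2.65 (SE 0.51, limma adjusted p = 0.0156), 1.86 without sham 3 (0.013), and the call ended without MI 1 or MI 2. Cxcl2, which attracts neutrophils, rose by 1.91 from 22.7, 42.9 and 4.17 to 127, 143 and 91.3 (SE 0.29, limma adjusted p = 0.00412) and held without any 1 sleep array. Ccl2, which attracts monocytes, rose by 1.44 and Ccl3 by 1.36, and both lost the call without sham 3 (limma adjusted p = 0.088 and 0.061). Cxcl1, the other main neutrophil attractant, gave 581, 600 and 355 against 187, 266 and 20.0. Its groups did not overlap, but with sham 3 so low the difference of 2.02 did not pass (limma adjusted p = 0.0606), while without sham 3 the smaller difference of 1.10 did (0.039).

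Among 29 cytokine and pattern recognition receptors, 3 rose (median 0.27). Tnfrsf12a, the receptor of the cytokine TWEAK, gave 533, 442 and 691 in MI and 91.9, 153 and 179 in sham, a rise of 1.88 (SE 0.29, limma adjusted p = 0.00416) that held without any 1 sleep array. Ptx3, a secreted pattern recognition protein, was nearly level in MI at 937, 917 and 901 but ranged from 13.05 in sham 3 through 206 to 436 in the other shams. Its rise of 2.71 (limma adjusted p = 0.0419) was 1.56 without sham 3 (0.0097), and the call ended without any 1 MI array or sham 1. Il1r2, a decoy receptor for interleukin-1 found on neutrophils, rose by 1.47 and lost its call without sham 3 (limma adjusted p = 0.12).

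Markers of infiltrating cells are given beside these genes, and their part in the differences was not tested. In tissue RNA, fewer cells of a type and less RNA per cell cannot be told apart. Of 12 neutrophil markers tested, 2 rose (Il1r2 and Hdc), 0 fell, and the median was 0.81, whereas without sham 3 0 rose and the median was 0.40. The summed signal of the list was 1876 to 3430 in MI and 561 to 2220 in sham. S100a8, one chain of the neutrophil protein calprotectin, gave 431, 632 and 653 against 275, 331 and 124, and S100a9, the other chain, 537, 1143 and 770 against 304, 432 and 128. Both had non-overlapping groups and neither passed (limma adjusted p = 0.106 and 0.0977). The granule protein gene Lcn2, at 594, 897 and 1454 against 601, 1126 and 201, overlapped between groups. Of 10 monocyte and inflammatory macrophage markers, 1 rose, the matrix glycoprotein gene Thbs1 (2.03, limma adjusted p = 0.0305, and 0.12 without sham 3), with summed signals of 883 to 1235 in MI and 318 to 845 in sham. Of 16 resident macrophage markers, 6 platelet markers and 26 interferon-stimulated genes, 0 were called. With 2.68% called over all genes, lists this short hold few calls or none. The defining macrophage marker Csf1r gave 644 to 705 in MI and 562 to 829 in sham. Of 13 leukocyte adhesion genes, 2 rose: the fibronectin receptor chain Itga5 (1.02, limma adjusted p = 0.00395) and Selp, the P-selectin on which leukocytes roll (1.29, 0.0413).

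Of 23 wound matrix and proteolysis genes, a list that shares Ccn1 and Ccn2 with the strain genes, 10 rose and 1 fell (median 0.63), and without sham 3 there were 7 and 0 (median 0.46). Adamts1, a protease that cleaves proteoglycans, gave 954, 710 and 828 in MI and 203, 206 and 121 in sham, a rise of 2.16 (SE 0.20, limma adjusted p = 4.31e-05). Plaur, the urokinase receptor, rose by 1.23 from 48.5, 46.8 and 28.0 to 119, 114 and 115, and Plat, the tissue plasminogen activator, by 1.03 from 113, 142 and 128 to 339, 299 and 210. These 3 held without any 1 sleep array. The remaining rises were those of Adamts4, Mmp14, Sphk1, Thbs1 and Itga5, and the 1 fall was that of Adamts5 (-0.68), a protease of the same family as Adamts1. Without sham 3, Adamts4, Mmp14, Thbs1 and Adamts5 were no longer called (limma adjusted p = 0.0828, 0.105, 0.12 and 0.122). Of 27 fibroblast and collagen genes, 0 were called (median 0.07), beside 2.68% called over all genes. Col1a1 differed by 0.05 and the proteoglycan gene Dcn by -0.25. Timp3, an inhibitor of matrix proteases, differed by 0.26 and Timp1 by 0.97 (limma adjusted p = 0.24). The TGF-beta receptor gene Tgfbr1 rose by 0.63, as 1 of 24 genes of its pathway, and was not called without sham 3 (limma adjusted p = 0.116).

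Vascular genes moved in both directions. Of 19 genes for VEGF, angiopoietins and vasoactive factors, 5 rose and 2 fell (median 0.27), and without sham 3 there were 2 and 1. Vegfa, the main growth signal for blood vessels, gave 355, 317 and 357 in MI and 212, 166 and 144 in sham. It rose by 0.93 (SE 0.19, limma adjusted p = 0.0206), and the call ended without MI 1, MI 3 or sham 3 (0.82, 0.098). Agt, the precursor of angiotensin, rose by 1.75 from 37.9, 39.0 and 10.5 to 141, 77.2 and 188 and held without any 1 sleep array. Adrenomedullin, a vasodilator peptide encoded by Adm, rose by 0.94 while a subunit of its receptor, Ramp2, fell by 0.62. The prostaglandin synthase Ptgs2 rose by 1.27 and endothelin, Edn1, by 0.51, and Hpgd, which inactivates prostaglandins, fell by 1.12. Hpgd gave 70.0, 53.1 and 56.6 in MI and 124, 153 and 171 in sham, with no overlap (SE 0.16, limma adjusted p = 0.00267), and was 1 of the 2 falls that held without any 1 sleep array. Of 27 endothelial markers, 1 was called, Egfl7, a secreted factor of endothelial cells, which fell by 0.60. The ion channel list of 13 also held 1 call, the vascular potassium channel Kcnj8, which fell by 0.48. Without sham 3, Ptgs2, Edn1, Ramp2, Egfl7 and Kcnj8 were no longer called (limma adjusted p = 0.113, 0.107, 0.0828, 0.126 and 0.131).

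Calls among genes of energy metabolism lay in some lists only, and are read beside the 2.68% called over all genes. Of 46 oxidative phosphorylation genes (median 0.03), 34 fatty acid oxidation and citrate cycle genes and 20 calcium handling genes (median 0.05), 0 were called. At that share, lists of these sizes hold few calls or none. Myh6 (0.11), the main adult myosin, and the calcium pump Atp2a2 (0.08) had overlapping groups. Of the 4 probe sets of Atp2a2, 1 had the opposite sign. Of 28 hypoxia and glycolysis genes, 4 rose (median 0.13), and without sham 3 there was 1. They were Vegfa and Adm with Hif1a, the oxygen-sensing transcription factor (0.87, limma adjusted p = 0.0156, and 0.068 without sham 3), and the glycolytic enzyme gene Pfkp (0.83, 0.0183, and 0.068). Ppargc1a, a coactivator that drives mitochondrial gene expression, gave 1143, 956 and 1458 in MI and 540, 567 and 551 in sham. It rose by 1.06 (SE 0.17, limma adjusted p = 0.00528) and held without any 1 sleep array, as did the insulin receptor substrate Irs2 (1.08, 0.00894). Pdk4, which restrains glucose oxidation, differed by 0.41 and did not pass. Of 24 antioxidant and metallothionein genes, the thioredoxin system genes Srxn1 (0.82) and Txnrd1 (0.71) rose and the glutathione transferase Gsta3 fell by 0.71. Srxn1 and Txnrd1 were no longer called without sham 3 (limma adjusted p = 0.149 and 0.131). Gsta3 was the other fall that held without any 1 sleep array, at 39.4, 38.5 and 27.9 against 64.5, 74.7 and 62.8.

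Counts in the remaining lists are read beside the 2.68% called over all genes. Of 20 ribosome and translation genes 1 rose, the initiation factor Eif5 (0.50), and of 27 splicing and RNA-binding genes 1 fell, Rsrp1. Of 19 p53 target and arrest genes, Gadd45g and Btg2 rose, and the cell cycle inhibitor Cdkn1a, at 1136, 1262 and 1690 in MI and 641, 975 and 312 in sham, differed by 1.19 and did not pass (limma adjusted p = 0.107). Of 11 complement and coagulation genes 1 rose, Thbd (0.63), the endothelial anticoagulant thrombomodulin. Eif5, Rsrp1 and Thbd were no longer called without sham 3 (limma adjusted p = 0.0545, 0.0724 and 0.158), with differences of 0.49, -1.51 and 0.54. The call of Eif5 also ended without MI 1, MI 3 or sham 1, and that of Thbd without any 1 MI array or sham 2. Of 32 proteasome subunits, 15 cell cycle genes and 17 FoxO target and mitophagy genes, 0 were called.

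The falls were smaller than the rises, and fewer kept the call whichever 1 of the 6 sleep arrays was left out (2 of 80, against 48 of 137 rises). Rsrp1, an arginine- and serine-rich nuclear protein, fell most. It gave 263, 200 and 690 in MI and 1054, 903 and 983 in sham, so that MI 3 was nearer the shams than the other MI hearts. The change was -1.51 (SE 0.31, limma adjusted p = 0.0192), and the call ended without MI 1, MI 2, sham 1 or sham 3. Cth, an enzyme that makes cysteine and hydrogen sulfide, fell by 1.07 from 43.8, 47.1 and 80.2 to 16.4, 18.8 and 19.1. Npr3, the receptor that clears natriuretic peptides from the circulation, gave 101, 103 and 70.5 against 235, 224 and 201 and fell by 1.15 (limma adjusted p = 0.0455), and its call ended without any 1 of the sleep arrays. Tsc22d3, a gene known to be induced by glucocorticoids, fell by 0.88 from 1630, 1544 and 1202 to 646, 779 and 946. Bcl2l11, a promoter of apoptosis also known as Bim, fell by 0.86, while Birc3, an inhibitor of apoptosis, rose by 0.87, each the only call in its direction among 20 cell death genes. The other falls among the 15 largest were Trmt1l, Plekhf1, Nr0b2, Msc, Runx1t1, Rasl10a and Ccdc71l, by 0.81 (Ccdc71l) to 0.96 (Trmt1l). Without sham 3 the calls of Cth, Npr3, Bcl2l11, Plekhf1, Nr0b2, Msc and Runx1t1 ended, with limma adjusted p values from 0.0774 (Cth) to 0.179 (Msc).

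Clock genes are relevant because the groups were operated on by time of day. Circadian clocks in heart cells run on a loop in which the Bmal1 and Clock proteins switch on Per, Rev-erb and PAR bZIP genes, and these feed back on the loop or carry its rhythm to other genes. Of 11 genes of the Per, Rev-erb and PAR bZIP arm, 3 fell, 0 rose and the median was -0.37, with 0 called without sham 3 (median -0.42). Per3 gave 34.2, 31.0 and 56.1 in MI and 112, 91.1 and 122 in sham, a fall of 1.16 (SE 0.24, limma adjusted p = 0.0198). Hlf and Tef, both PAR bZIP factors, fell by 0.82 and 0.65 (limma adjusted p = 0.0385 and 0.0192). Each group was free of overlap, and sham 3 lay at or near the level of the other shams in Hlf and was the highest sham in Per3 and Tef. Dbp, another PAR bZIP factor, at 595, 492 and 315 against 814, 682 and 963, differed by -0.82 and did not pass (limma adjusted p = 0.14). Per1 (-0.05), Per2 (-0.37) and Nr1d1 (0.31), which encodes Rev-erb alpha, did not pass. In the Bmal1 arm 1 of 6 genes rose, Nfil3, a repressor that binds the same sites as the PAR bZIP factors. It gave 293, 226 and 280 against 86.9, 93.2 and 54.2, a rise of 1.61 (SE 0.15, limma adjusted p = 4.31e-05) that held without any 1 sleep array. Arntl, which encodes Bmal1, differed by 0.20 and did not pass.

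The genes in which it lay farthest below shams 1 and 2, among 7605 genes in which those differed by less than 0.5, were led by Cxcl1, Cxcl5 and Il6. Cxcl5, another neutrophil attractant, gave 116, 125 and 6.39 in shams 1, 2 and 3, and 105, 121 and 121 in the MI hearts. Without sham 3 the MI hearts and the shams were at the same level for Cxcl5 (-0.05), and with it they differed by 0.82. Serpina3n, an acute phase protease inhibitor, gave 520, 526 and 97.0 in the shams and 291, 359 and 652 in MI. Hmox1, the stress-induced enzyme that breaks down heme, gave 73.6, 79.4 and 13.8, against 97.5, 122.8 and 123.4 in MI. The others were Ifitm1, Chil3, Clec4d, Plac8 and 2210407C18Rik, and in all 10 genes sham 3 was below the lowest MI heart. By this rule sham 3 was more than 1 below the others in 47 genes and more than 1 above in 10.

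The genes in which sham 3 lay farthest above the other shams included several muscle genes. Sln, which encodes the calcium pump inhibitor sarcolipin of the atria, gave 3.87, 1.04 and 103 in the shams and 270, 56.2 and 62.3 in MI. Myl4, an atrial myosin light chain, gave 70.6, 59.5 and 250 against 425, 158 and 186 in MI, and Acta1, Nppa and Ankrd1 followed, with the values above. The atrial light chain Myl7 showed the same order, at 26.3, 11.5 and 256 in the shams and 550, 121 and 158 in MI. For Myl7, Sln and Myl4 the MI hearts and sham 3 were above shams 1 and 2. Of 11 atrial markers, sham 3 was the highest sham in 8, and the summed signal of the list was 2945, 2603 and 5722 in the shams and 2800 to 3896 in MI. Nppa alone made up a large part of each sum, at 1772, 1599 and 4111 in the shams and 1409 to 1703 in MI. The atrial marker Bmp10 was below the level filter. The part of atrial tissue in these values was not tested, and the labels give no dissection. Tfrc, Ptn, Txnip, Tbxa2r and Klf10 completed the 10.

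By list, sham 3 was the lowest sham in 10 of 12 neutrophil markers (median deviation from shams 1 and 2 -1.09), 9 of 10 monocyte markers (-0.99), 20 of 28 immediate early genes (-0.65), 19 of 25 cytokines (-0.51) and 21 of 26 interferon-stimulated genes (-0.30). It was the highest sham in 21 of 27 fibroblast and collagen genes (0.42) and 30 of 46 oxidative phosphorylation genes (0.20). In the oxidative phosphorylation list the array farthest from the other shams was sham 2. The list's summed signal was 283400, 226600 and 291000 in shams 1, 2 and 3. Over all genes sham 3 was the lowest sham in 34.8% and the highest in 36.5%. The wake comparison contrasts other arrays, although the level filter and the estimate of spread behind its calls also drew on the sleep arrays. Of 633 genes called higher in wake MI than in wake sham, sham 3 was the lowest sleep sham in 67.9%, against 19.3% for sham 1 and 12.8% for sham 2. The median deviation from the other sleep shams was -0.25 for sham 3, 0.05 for sham 1 and 0.22 for sham 2. Of 862 genes called lower in wake MI, it was the highest sleep sham in 51.0%, with a median deviation of 0.09. So sham 3 lay lower than the other sleep shams in most genes that wake MI raised. With 1 array no test of this can be made, and whether the animal, the operation or the sample differed cannot be told apart.

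**Figure D3:**
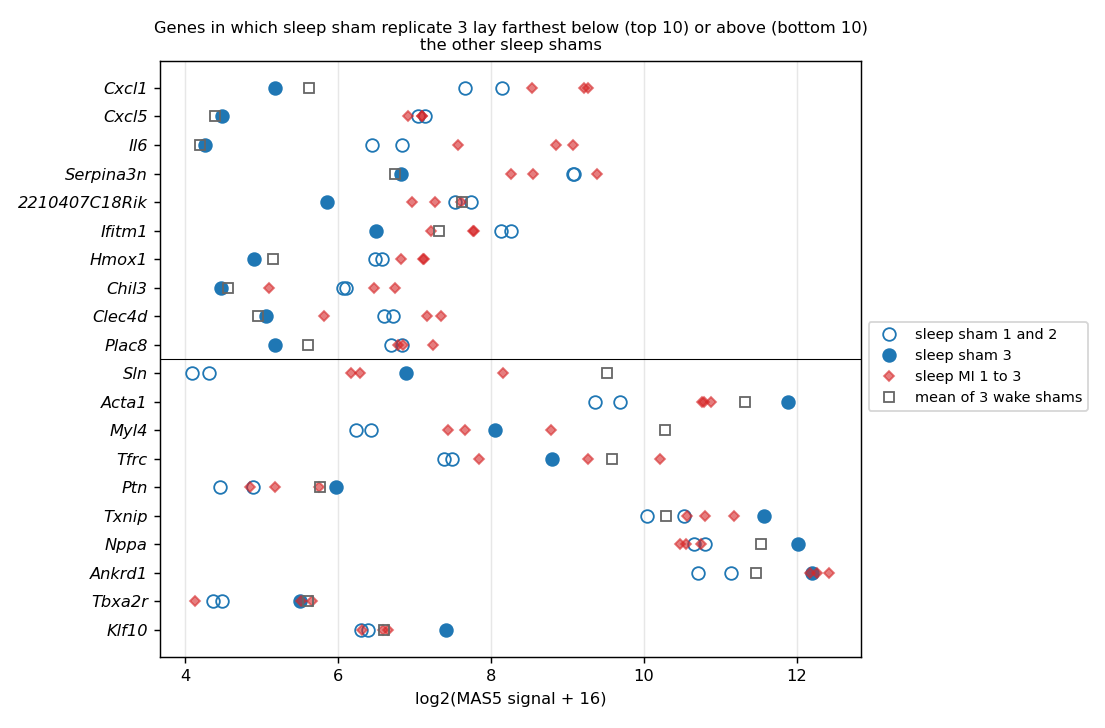
Level on the log2(MAS5 signal + 16) scale of the 10 genes in which sleep sham replicate 3 (filled circles) lay farthest below and the 10 in which it lay farthest above shams 1 and 2 (open circles), with the 3 sleep MI hearts (red diamonds) and the mean of the 3 wake shams (squares). Sham 3 is near the wake shams in genes such as Il6 and Serpina3n, and above the MI hearts in Acta1 and Nppa.

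The MI effect in sleep hearts was set beside that in wake hearts from the same fit, in which the comparisons share no array but share the estimate of spread. Wake MI changed 1495 genes (18.4%), and the median size of a difference was 0.21 in wake and 0.15 in sleep. The difference of the effects was tested gene by gene, and 0 genes passed (0%). At an unadjusted p below 0.05 there were 848, and the smallest limma adjusted p was 0.0516, for Timp3. Of the 217 genes called in sleep, 208 had the same sign in wake, 162 were also called there in the same direction and 0 in the opposite one. The 162 were 118 rises and 44 falls, and made up a smaller share of the 1495 wake calls than of the 217 sleep calls. Of the 137 rises in sleep, 63 were larger in sleep and 74 in wake. These genes were chosen on their sleep values, which favours a larger sleep effect. Without sham 3 the difference passed for 37 genes, and without wake sham 2 for 22.

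Some genes called in sleep differed less in wake than in sleep. Vegfa rose by 0.93 in sleep and differed by -0.22 in wake, a difference of the effects of 1.15 (SE 0.27, limma adjusted p = 0.167). Phlda1, a regulator of cell survival, and Rrad, a brake on cardiac calcium channels, were picked out after their values were seen. Phlda1 rose by 1.53 in sleep against 0.15 in wake, and Rrad by 1.54 against 0.46, with limma adjusted p values for the difference of 0.139 and 0.283. Nppb rose by 3.66 in sleep against 1.37 in wake (difference 2.29, SE 0.92, limma adjusted p = 0.407). Its mean signals were 5858.5 in MI and 744 in sham in sleep, and 4690 and 2099 in wake. The falls of Per3, Hlf and Tef in sleep stood beside -0.31, -0.05 and 0.06 in wake, with limma adjusted p values for the difference of 0.407, 0.342 and 0.222. Their mean signals in sham were 108, 91.5 and 503 in sleep but only 29.1, 52.5 and 252 in wake. In sleep MI they were 40.4, 46.6 and 314, so the wake shams were already near or below the sleep MI level.

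Other genes differed less in sleep than in wake. Mt2, a metal-binding metallothionein, gave 7114, 7168 and 7834 in sleep MI and 5275, 5863 and 2069 in sleep sham. The groups were apart, with sham 3 the lowest, but the difference of 0.88 did not pass (limma adjusted p = 0.177). In wake it was 3.67, and the difference of the effects was -2.79 (SE 0.45, limma adjusted p = 0.0975). Timp3 differed by 0.26 in sleep and 1.32 in wake. Of 23 glucocorticoid-responsive genes, 1 rose (Il1r2) and 1 fell (Tsc22d3) in sleep (median 0.30), and 16 rose in wake (median 1.21). Of the 11 atrial markers (median 0.01 in sleep and -0.53 in wake), Myl7 had the widest gap. It differed by 1.80 in sleep, not called and 2.80 without sham 3, and by -4.69 in wake, where its sham signal was 1274 ± 1909 (SD, n = 3). The limma adjusted p for the difference of these effects was 0.139. The atrial peptide gene Nppa had the same sign in both, at -0.57 in sleep and -0.94 in wake. Those of these differences that were tested did not pass, so these values are shown side by side and not as time-of-day effects.

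**Figure D4:**
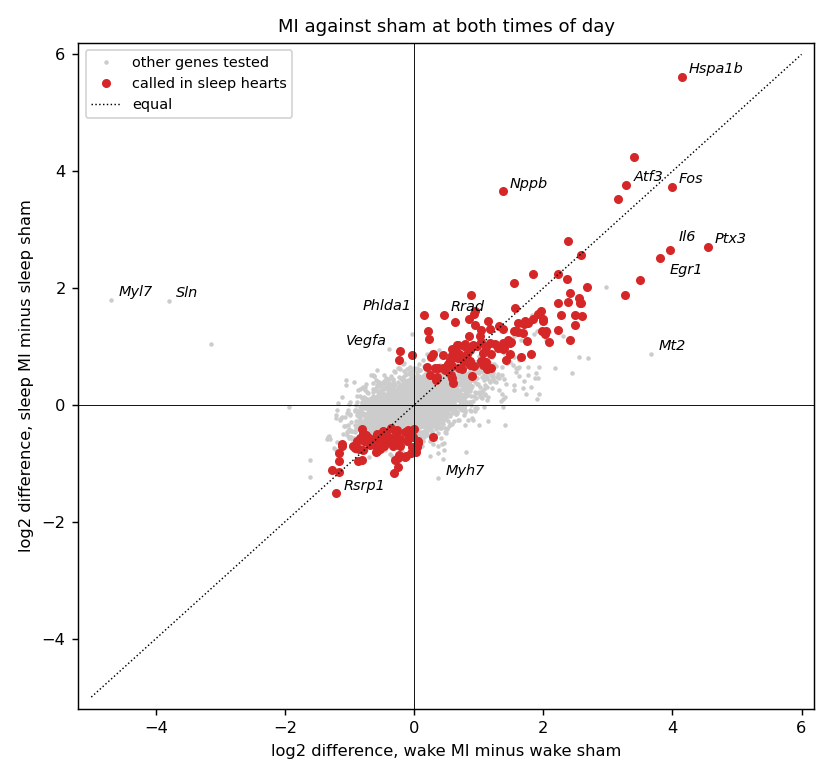
Log2 difference of MI and sham in wake hearts (horizontal axis) against that in sleep hearts (vertical axis), 1 point a gene; red points are the 217 genes called in sleep hearts, and the dotted line marks equal differences. Hspa1b, Nppb, Phlda1, Rrad and Vegfa lie above the line, Ptx3, Il6, Egr1 and Mt2 below it, and Myl7 and Sln lie far to the left.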

How the data were processed

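Each of 12 mice gave 1 Affymetrix array from Trizol-extracted heart RNA, per the labels' protocols. The authors deposited a MAS5 intensity for each probe set, unlogged, and per the submitters' processing notes MAS5 was the only tool. Its version and settings are not stated in the labels. After trimming 2% at each end, every array's mean was 150.1, and no scaling was added.

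Of 22690 probe sets, 64 were controls, 691 had several gene symbols and 1555 none. The 20380 with 1 symbol in the platform annotation gave 12393 genes, each represented by its brightest probe set. Gene identifiers of 12369 matched RefSeq's gene table (GRCm38.p6). The 8109 genes tested had a mean signal of 17.3 or more, the 40th percentile of non-control probe sets. Values were taken as log2(signal + 16) and fitted with limma 3.58.1 (R 4.3.3) as 4 group means over 12 arrays, with an intensity trend in the variances, 8 residual degrees of freedom and two-sided tests. P-values were adjusted by Benjamini-Hochberg over all genes tested. The code was tested on simulated data. Lists are described by counts and medians, without a test. A rule named the 15 largest called rises and falls whose groups do not overlap, and up to 4 called and 2 other members of each list. It also named a panel and the genes in which sham 3 stood farthest apart. Beyond the rule, further called members of several lists were named. Phlda1 and Rrad were picked out after their values were seen. The members and lists were chosen with earlier results of these data known. Arrays have no read depth: 3 hearts a group limit the precision. The labels name no batch and no scan date, so batches were not tested. Alternatives covered the pseudocount, level filter, normalization, probe set rule, variance model, array weights, covariates and left-out arrays.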

Additional observations from a re-analysis of the deposited data

How the results depend on the processing

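The 71 called genes named by the rule above all kept their sign in each alternative run, and 27 kept the call in each. Called genes named beyond the rule, such as Dnajb1, Ccn2 and Phlda1, were not part of this count. The 217 calls in sleep MI against sleep sham were 140 with no level filter, 418 with array weights, 51 at an adjusted p below 0.01 and 57 to 230 with 1 sleep array left out. The 137 rises were 216 with array weights, 48 at 0.01 and 50 to 157 with an array left out. The 80 falls were 36 with no level filter, 202 with array weights, 3 at 0.01 and 7 to 73 with an array left out. With no filter 12393 genes were tested in place of 8109, and the cause of the lower count was not tested. The counts for all calls lay between 173 and 235 under the other pseudocounts, filter, scalings, probe set rule, variance models, covariate and sample sets. The cause of the higher counts with array weights was not tested.

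The 0 calls in the difference between sleep and wake became 1 with the filter at the 60th percentile, 2 after quantile normalization, 1 after median centring, 1 with a robust prior, 39 with array weights, and 0 to 37 with 1 of the 12 arrays left out. They were 37 without sleep sham 3, 22 without wake sham 2 and 1 without sleep sham 1, and the cause was not tested.

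With the replicate number as a block, 177 genes were called in sleep, 127 higher and 50 lower, 162 of them shared, and 3 in the difference. Deviations of same-numbered sleep arrays from their group means correlated at -0.170, 0.077 and -0.111. These 3 values are too few to tell whether the numbers pair the samples, and the labels name no batch. Calls lost under the block were therefore neither set aside nor read as weaker effects.

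Precision is limited by 3 arrays a group, MAS5 signals near the low end have little order, and without detection calls no bound was set for dim genes.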
